A study of Mus musculus with 6 samples.

Results

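The genes of fatty acid activation and beta-oxidation were examined in skeletal muscle RNA of ovariectomized mice with and without estradiol (E2). The 39 genes listed cover acyl-CoA synthetases, the carnitine shuttle, the enzymes of mitochondrial and peroxisomal oxidation, both arms of malonyl-CoA turnover, the lipases that release fatty acids and 1 acyl-CoA thioesterase. Every probe set that the array annotation gives to exactly 1 of these symbols was taken, which yielded 69 of the 45101 probe sets and 37 of the 18194 genes named by such probe sets. Acsl1, a long-chain acyl-CoA synthetase, and Cpt1b, the muscle form of the outer-membrane carnitine palmitoyltransferase, had no probe set of this kind and were not measured here. The arrays compared 3 OVX samples with 3 OVX + E2 samples. All came from female C57BL/6 mice ovariectomized at 4 months of age, with no induced mutation or transgene. The OVX mice received placebo pellets and the OVX + E2 mice received pellets holding 0.18 mg of E2, each for 60 days, and there was no group with ovaries. Since nothing in the sources says that the arrays stand for separate mice, all p-values refer to the spread among these samples, and this spread may be technical.

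The labels give left ventricle as the tissue, whereas the title of the series and the methods give skeletal muscle, namely soleus. By the brightest probe set, 10 of 10 genes restricted to skeletal muscle and 0 of 10 heart-restricted genes lay in the top 5% of the array. Slow-fibre genes, with 9 of 9 in the top 5%, and fast-fibre genes, with 10 of 10, were both bright. The values are log2 intensities in arbitrary units after variance stabilization, a scale on which differences of dim probe sets are compressed. The array medians lay between 6.90 and 6.93. Read depth does not apply to arrays, and precision is limited by how many there are. All differences below are OVX + E2 minus OVX on this log2 scale, so that a value below 0 is lower with E2. For a gene with several probe sets, the brightest over all arrays stands for it.

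A fatty acid must be joined to coenzyme A before it can be burnt. Long-chain acyl-CoA then enters mitochondria as a carnitine ester, through the outer-membrane transferase, the carrier and the inner-membrane transferase, and malonyl-CoA blocks the first of these. Inside, dehydrogenases, hydratases, hydroxyacyl-CoA dehydrogenases and thiolases shorten the chain in repeated rounds and pass electrons to the respiratory chain through electron transfer flavoprotein, while peroxisomes shorten very long and branched chains with an oxidase that makes hydrogen peroxide. Slow oxidative muscle such as soleus relies heavily on the mitochondrial route.

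Hadha and Hadhb encode the alpha and beta subunits of the mitochondrial trifunctional protein, and the OVX and OVX + E2 arrays were apart for Hadha but not for Hadhb. The genes lie head to head on chromosome 5 of GRCm38.p6, with Hadha starting at 30154980 on the minus strand and Hadhb at 30155253 on the plus strand. The 272 bases between them, which lie upstream of both genes, are shown for that reason. The sequence is the plus strand of chr5:30154981-30155252, 5′ to 3′, from the RefSeq promoter table, and capitals mark both GC boxes (GGGCGG).

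Hadha and Hadhb: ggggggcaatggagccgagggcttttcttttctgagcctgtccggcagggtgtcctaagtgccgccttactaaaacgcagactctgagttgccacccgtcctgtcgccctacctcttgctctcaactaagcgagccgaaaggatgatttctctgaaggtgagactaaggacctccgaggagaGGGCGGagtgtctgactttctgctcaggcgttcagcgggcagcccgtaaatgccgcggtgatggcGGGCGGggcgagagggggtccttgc

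In the order of the replicate numbers, which all values below follow, Hadha gave 11.74, 11.58 and 11.57 on the OVX arrays against 11.33, 11.49 and 11.06 on those of OVX + E2. Every OVX + E2 array lay below every OVX array, and the lowest value was that of OVX + E2 replicate 3. The group means differed by −0.33 (SE 0.107, unadjusted p = 0.0166 and adjusted p = 0.316 by limma), which is a ratio of 0.794. Without OVX + E2 replicate 3 the difference was −0.22 (unadjusted p = 0.0277 by limma), and without OVX replicate 1 it was −0.28 (unadjusted p = 0.0606). Hadhb measured 12.39, 12.23 and 12.15 in OVX against 12.20, 12.30 and 12.26 in OVX + E2, and its groups overlapped. Its difference was −0.0037, with a 95% interval from −0.16 to 0.15 by limma. The other probe sets of Hadhb differed by 0.08 and 0.15, so no Hadhb probe set followed Hadha. The one at 0.08 is of a kind whose probes may match other transcripts, so its value is uncertain.

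Taken within each array, the log2 value of Hadha minus that of Hadhb, after each gene was centred on its own mean, was 0.14, 0.14 and 0.21 in OVX against −0.08, −0.01 and −0.40 in OVX + E2. The change of this ratio was −0.33 in the deposited values and −0.33 after cyclic loess, a normalization that levels differences between arrays along the intensity scale. That step shifts probe sets of similar level on an array by similar amounts, so the equal values are no check of the ratio. The change was −0.21 without OVX + E2 replicate 3, which was also the lowest array of the fast-fibre genes. The part of these genes in the ratio was not tested. Electron transfer flavoprotein has the subunits Etfa and Etfb, which gave a similar picture. Etfb measured 12.26, 12.20 and 11.99 in OVX against 11.99, 11.99 and 11.98 in OVX + E2, whereas Etfa measured 11.92, 11.74 and 11.76 in OVX against 11.79, 11.90 and 11.82 in OVX + E2. The centred ratio of Etfb to Etfa was 0.09, 0.21 and −0.02 in OVX against −0.04, −0.15 and −0.09 in OVX + E2, a change of −0.19. In both pairs each OVX + E2 array had a lower ratio than each OVX array, but the pairs were picked after their values had been seen, and no test was made of them. A ratio of this kind shows unequal change and not which subunit moved.

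**Figure D1:**
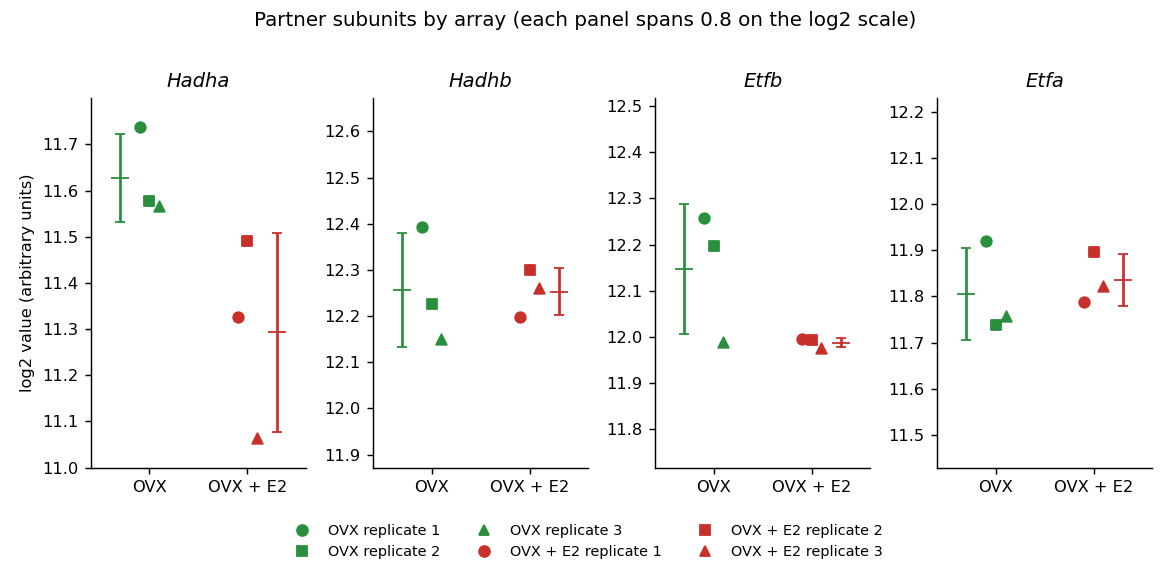
Log2 values (arbitrary units) of Hadha, Hadhb, Etfb and Etfa on each array, with OVX in green and OVX + E2 in red, with bars for the mean ± SD of 3 arrays; each panel has its own axis with a span of 0.8. Hadha separates the groups and Hadhb does not, with differences of −0.33 and −0.0037, and Etfb in OVX + E2 stays between 11.98 and 11.99.

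No member passed the threshold of the comparison. At an unadjusted p of 0.001 or less limma called 0 of the 69 member probe sets, where 0.213% of all probe sets were called. After Benjamini-Hochberg adjustment limma called 0 members and 0 of all probe sets at 0.05. At an unadjusted p under 0.05, used below only to describe, 7 of the 69 member probe sets (10.1%) were lower in OVX + E2, beside 9.43% of all probe sets, and 0 were higher, beside 4.35%. The 7 belonged to Hadha, Acads, Hadh, Decr1, Crat, Ehhadh and Mgll. Over genes, 5 of 37 (13.5%) were lower, beside 13.3% of all genes, so the share of members did not stand out from the background. Groups that did not overlap, with OVX + E2 lower, were found for 8 of 69 probe sets (11.6%, beside 11.4% of all) and for 7 of 37 genes (18.9%, beside 15.3% of all genes). The single probe set with groups apart and OVX + E2 higher was the dimmer one of Pnpla2, beside 9.76% of all probe sets. In whole-muscle RNA fewer cells of a type and less RNA per cell cannot be told apart, for these genes as for any.

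**Figure D2:**
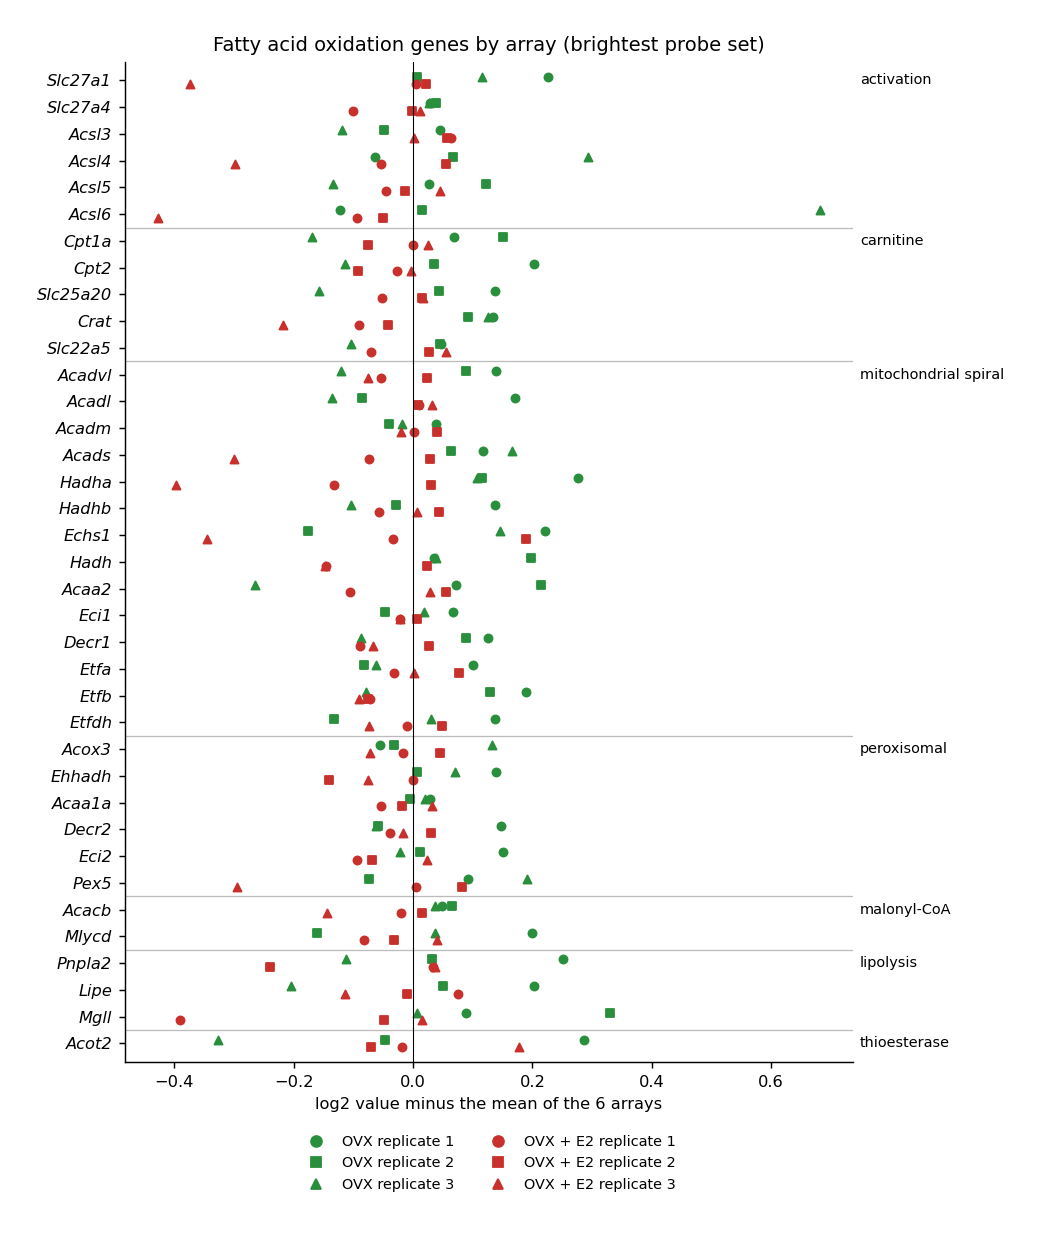
Each row is a member gene and each point an array, placed at the log2 value of the brightest probe set minus its mean over the 6 arrays, with OVX in green and OVX + E2 in red. OVX replicate 1 is the highest array for 21 of 37 genes, and the points of Acsl6, Acot2 and Echs1 spread most within a group.

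The dehydrogenases open each round of the mitochondrial spiral. Acads, which takes the short chains, measured 9.33, 9.28 and 9.38 in OVX against 9.14, 9.24 and 8.91 in OVX + E2. The groups did not overlap and differed by −0.23 (SE 0.0827, unadjusted p = 0.0262 and adjusted p = 0.33 by limma). Without OVX + E2 replicate 3, the lowest array, the difference was −0.14. The unadjusted p by limma was 0.0622 without OVX replicate 1, 0.068 without OVX replicate 3 and 0.053 with the replicate number as a block. The dehydrogenases for longer chains gave smaller values with overlapping groups. Acadm, for medium chains, measured 12.46, 12.38 and 12.40 in OVX against 12.42, 12.46 and 12.40 in OVX + E2, a difference of 0.01 with a 95% interval from −0.08 to 0.11. Acadl, for long chains, differed by 0.03 (from −0.15 to 0.22), and Acadvl, for very long chains, by −0.07 (from −0.24 to 0.10). Among the 4 dehydrogenases Acads was thus the single one whose groups were apart, although its difference was not tested against theirs.

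The later steps of the spiral include the hydratase Echs1, the dehydrogenase Hadh and the thiolase Acaa2. Hadh, which oxidizes medium and short hydroxyacyl-CoA, measured 12.60, 12.76 and 12.60 in OVX against 12.41, 12.58 and 12.41 in OVX + E2, with no overlap. Its difference was −0.18 (SE 0.0673, unadjusted p = 0.0306 by limma), and its other probe sets differed by −0.12 and −0.05. The brightest Hadh probe set is of the kind whose probes may also match other transcripts, so this value is uncertain. The unadjusted p by limma was above 0.05 when OVX replicate 2 (0.0949), OVX + E2 replicate 1 (0.1) or its replicate 3 (0.0923) was left out. Echs1 measured 10.55, 10.15 and 10.47 in OVX against 10.29, 10.51 and 9.98 in OVX + E2, and the arrays of each group covered most of the range of the other. Acaa2 differed by −0.01, far inside the range of 0.48 covered by its OVX arrays.

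Unsaturated chains need the isomerase Eci1 and the dienoyl-CoA reductase Decr1. The dimmer of the 2 probe sets of Decr1 measured 9.79, 9.71 and 9.62 in OVX against 9.52, 9.58 and 9.59 in OVX + E2, which left a narrow gap between the groups. It differed by −0.15 (SE 0.0526, unadjusted p = 0.0267 by limma), while the brighter one differed by −0.09 with overlapping groups. The unadjusted p of the dimmer one by limma was 0.062 with the replicate block, 0.086 without OVX replicate 1, 0.0578 without OVX replicate 2 and 0.0899 without OVX + E2 replicate 1. Eci1 differed by −0.03 and stayed within 11.11 to 11.22 on all arrays. Etfdh, which hands the electrons of the flavoprotein to ubiquinone, differed by −0.02, and its other probe set by 0.06.

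Before the spiral lies the carnitine shuttle. Crat, carnitine acetyltransferase, which exports acetyl groups as acetylcarnitine, had the smallest p of all members. It measured 10.58, 10.54 and 10.57 in OVX against 10.35, 10.40 and 10.22 in OVX + E2, so its OVX arrays were tight and all stood above the OVX + E2 arrays. The difference was −0.23 (SE 0.0523, unadjusted p = 0.0027 and adjusted p = 0.308 by limma). The 2 other Crat probe sets differed by −0.01 and −0.02, so the probe sets of this gene disagreed. The one at −0.01 is of the kind whose probes may match other transcripts. Cpt2, the inner-membrane transferase, measured 10.63, 10.46 and 10.31 in OVX against 10.40, 10.33 and 10.42 in OVX + E2, a difference of −0.08 with overlap. Slc25a20, the carrier, differed by −0.01, Cpt1a, the liver form of the outer-membrane transferase, by −0.03, and Slc22a5, the carnitine importer of the plasma membrane, by 0.01. The other probe sets of Slc25a20 and Slc22a5 differed by −0.13 and −0.02.

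Fatty acid activation held the member with the widest range within a group, Acsl6, with 0.80 in OVX. Of the 6 measured genes, 5 were below 0, with a median of −0.13, but 0 had a p under 0.05. Acsl6, an acyl-CoA synthetase best known from brain, measured 8.21, 8.35 and 9.01 in OVX against 8.24, 8.28 and 7.90 in OVX + E2. Its difference of −0.38, the largest of all members in size, rested on the arrays numbered 3, and without both of them it was −0.02. The other Acsl6 probe set differed by −0.02 on all arrays. Acsl4, which prefers arachidonic acid, measured 7.39, 7.52 and 7.75 in OVX against 7.40, 7.51 and 7.16 in OVX + E2. It differed by −0.20, and by −0.00051 without the arrays numbered 3. These arrays were also the extremes of the fast-fibre genes, all 10 of which were highest on OVX replicate 3, with a median deviation of 0.88 there and of −0.75 on OVX + E2 replicate 3. The part of fibre makeup in the values of Acsl6 and Acsl4 was not tested.

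Slc27a1 and Slc27a4 are transport proteins that also activate fatty acids. Slc27a1 differed by −0.23 with overlapping groups, and by −0.10 without OVX + E2 replicate 3, its lowest array. Its other probe set differed by −0.02. Slc27a4 measured 7.48, 7.49 and 7.48 in OVX against 7.35, 7.45 and 7.47 in OVX + E2, which left the groups apart by a small gap at a difference of −0.06. Acsl3, the synthetase of the endoplasmic reticulum and lipid droplets, differed by 0.08, and Acsl5 by −0.0091. The other Acsl3 probe sets differed by −0.03 and 0.05.

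Acsl6 was also the single member whose promoter held a match to the estrogen-related receptor site, and its upstream sequence is shown for that reason. It is the plus strand of chr11:54303574-54303804 in GRCm38.p6, 5′ to 3′, from RefSeq, and capitals mark TGACCTTGA, which reads TCAAGGTCA on the opposite strand.

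Acsl6: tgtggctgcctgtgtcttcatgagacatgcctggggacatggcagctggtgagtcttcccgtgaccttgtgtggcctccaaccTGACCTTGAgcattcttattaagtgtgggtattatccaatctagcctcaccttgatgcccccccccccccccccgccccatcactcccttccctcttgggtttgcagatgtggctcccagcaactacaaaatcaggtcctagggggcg

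Promoters were searched on both strands in windows from 250 bases before to 50 bases after each start, for the 35 member genes with an entry. All genes here are the 27025 genes with a promoter entry, not limited to genes of the array or genes active in muscle. The estrogen-related receptor site TCAAGGTCA was in 1 of 35 genes, beside 0.466% of all genes. The direct repeat AGGTCANAGGTCA, a site of nuclear receptors such as the PPARs, was in 0 of 35, and so was the palindromic estrogen response element GGTCANNNTGACC. Across all promoters they were in 0.0396% and 0.07%. The core hexamer AGGTCA, which is part of the receptor site and of the repeat, was in 6 of 35 genes (17.1%, beside 18.1% of all genes), namely Acacb, Acadm, Acadvl, Acsl6, Cpt1a and Echs1. GC boxes (GGGCGG) were in 28 of 35 (80%, beside 38.2% of all genes) and CCAAT in 17 of 35 (48.6%, beside 41.1%). These matches describe the letters in the windows and were not tested. The hexamer, GC box and CCAAT searches were added after the data had been seen.

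The peroxisomal steps comprised 6 genes, all below 0 by the brightest probe set, from −0.14 to −0.02. Ehhadh, the bifunctional hydratase and dehydrogenase and a known target of PPAR alpha in liver, measured 6.996, 6.863 and 6.928 in OVX against 6.858, 6.717 and 6.782 in OVX + E2. The groups nearly touched, with a difference of −0.14 (SE 0.0534, unadjusted p = 0.0306 and adjusted p = 0.337 by limma). Its probe set was the single one of the members with a lower value at a p under 0.05 both as deposited and after cyclic loess, where it differed by −0.17 (unadjusted p = 0.016 by limma). Its mean lay at percentile 47.0 of all probe sets, near the middle of the array, where the scale compresses differences, and was not shown to be above background. As deposited, the unadjusted p by limma was above 0.05 without OVX replicate 1 (0.103), OVX replicate 3 (0.0589), OVX + E2 replicate 2 (0.101) or OVX + E2 replicate 3 (0.0669).

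The upstream sequence of Ehhadh is shown because its probe set was the one lower at a p under 0.05 on both scales. It is the minus strand of chr16:21787835-21788084 in GRCm38.p6, 5′ to 3′, from RefSeq, and capitals mark GC boxes (GGGCGG, or CCGCCC on the opposite strand) and a CCAAT box that reads ATTGG.

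Ehhadh: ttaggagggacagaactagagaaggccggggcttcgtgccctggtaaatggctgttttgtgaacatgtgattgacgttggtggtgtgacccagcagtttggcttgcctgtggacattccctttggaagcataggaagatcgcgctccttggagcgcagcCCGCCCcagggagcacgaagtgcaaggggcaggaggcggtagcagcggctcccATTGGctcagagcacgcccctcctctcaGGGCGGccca

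Pex5, the receptor that imports peroxisomal enzymes, differed by −0.14, with lower values on OVX + E2 replicate 3, and its 2 probe sets were both below 0. Without both arrays numbered 3 its brightest probe set differed by 0.03 and that of Acox3 by 0.06, which left 4 of the 6 genes below 0. The other Pex5 probe set differed by −0.11, and by −0.08 without these arrays. Eci2, an isomerase of peroxisomes and mitochondria, differed by −0.09. Acaa1a, the peroxisomal thiolase, differed by −0.03, with a 95% interval from −0.12 to 0.06. Its probe sets are of the kind that may match other transcripts, and the near-identical Acaa1b makes its value uncertain. Acox3, an oxidase for branched chains, differed by −0.03, and Decr2, the peroxisomal dienoyl-CoA reductase, by −0.02. The other Acox3 probe set differed by 0.05, in the opposite direction. Apart from Ehhadh, the groups of every peroxisomal gene overlapped.

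Side by side, the 17 mitochondrial genes, that is the spiral with Cpt1a, Cpt2 and Slc25a20, had a median difference of −0.03 with 14 below 0, and the 6 peroxisomal genes a median of −0.06 with 6 below 0. All genes had a median of −0.01 with 55.0% below 0. At an unadjusted p under 0.05, 3 of 17 mitochondrial genes (17.6%) and 1 of 6 peroxisomal genes (16.7%) were lower, beside 13.3% of all genes. With Eci2 counted as mitochondrial the medians were −0.05 and −0.03. The peroxisomal group includes Pex5 (−0.14), an import receptor and not an enzyme of oxidation, and was not summarised without it. Crat (−0.23) and Acot2 (0.06) were counted in neither group, and no alternative with them was run. The gap of 0.0276 between the medians was smaller than the SD of the array medians within groups, 0.0816 for the mitochondrial and 0.0509 for the peroxisomal genes, and no test was made over the lists. The mitochondrial median moved with single OVX arrays, to −0.0015 without OVX replicate 1 and to −0.13 without OVX replicate 3.

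After cyclic loess the groups lay on opposite sides of 0. The mitochondrial median was then 0.07, with 4 of 17 below 0, and the peroxisomal median −0.04, with 4 of 6 below 0. All genes had a median of 0.0045 after this step, with 47.4% below 0. Acadm (0.15), Etfa (0.17) and Eci1 (0.12) then had an unadjusted p under 0.05 with OVX + E2 higher. So did the second-brightest probe sets of Hadhb (0.23) and Crat (0.14), both of the kind whose probes may match other transcripts. Together they were 5 of 69 member probe sets (7.25%, beside 3.57% of all), and 1 of 69 (1.45%, beside 4.02%), that of Ehhadh, was lower. Hadha differed by −0.19, Acads by −0.09, Crat by −0.09 and Hadh by −0.04 after this step, each with an unadjusted p above 0.05. The direction for the mitochondrial genes as a group therefore depended on the normalization. The median of the 6 peroxisomal members stayed below 0 under the alternatives run. That of 30 further peroxisomal genes, described below, did not, with −0.07 as deposited and 0.02 after cyclic loess.

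**Figure D3:**
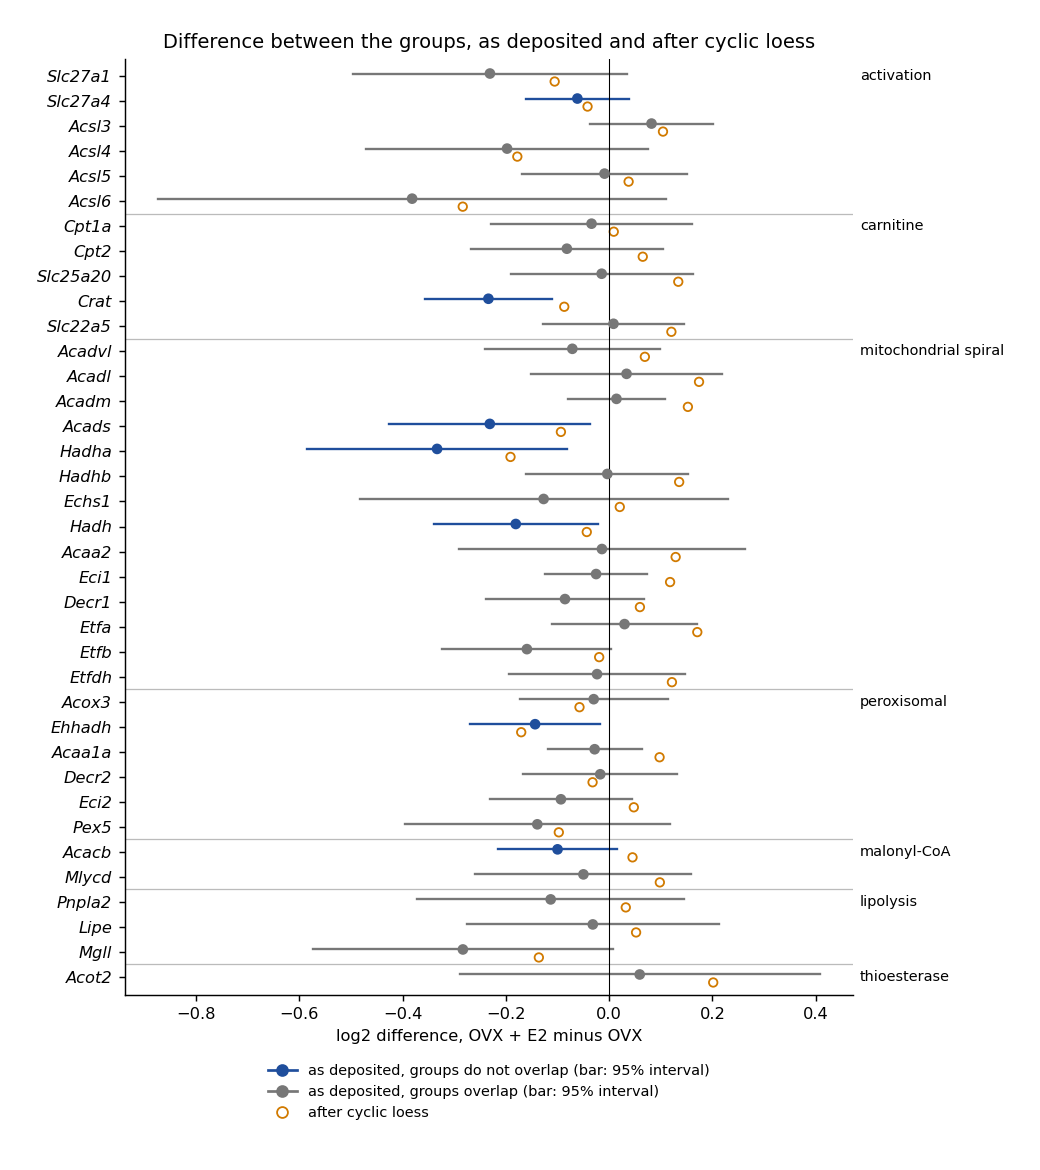
Log2 difference (OVX + E2 minus OVX) of each member gene by its brightest probe set, with the 95% interval of limma as a bar, and open circles for the same difference after cyclic loess. Mitochondrial genes move right, from a median of −0.03 to 0.07, while Ehhadh goes from −0.14 to −0.17.

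The reason to show both scales is that the difference between the groups varied with brightness over the whole array. Among all probe sets the median difference was 0.02 at levels from 6 to 7, −0.12 from 8 to 9, −0.16 from 10 to 11 and −0.13 from 12 to 13. Mitochondrial members sat high on this scale, with a median level of 11.3, and peroxisomal members low, at 7.37, which tells where their probe sets lie and not how much RNA each gene had. Of the 23 member genes with a mean of 9 or more, 4 (17.4%) were lower at an unadjusted p under 0.05, beside 41.1% of all 2470 genes of that level. Their median difference was −0.08, beside −0.15 for all genes of that level, and 19 of 23 (82.6%) were below 0, beside 93.8%. In all, 23 of the 37 member genes lay above the median of their own level class. Of the 14 members with a mean under 9, 12 lay at levels from 7 to 9, and 6 lay above the median of their own level class. After cyclic loess 6 of the 23 members with a mean of 9 or more (26.1%) were below 0, beside 52.6% of genes of that level. Their median was 0.065, beside −0.0067, and 3 (13%) were higher at an unadjusted p under 0.05, beside 3%, and 0 lower, beside 3.72%. Of the 14 members under 9, 8 (57.1%) were then below 0, beside 46.6%.

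**Figure D4:**
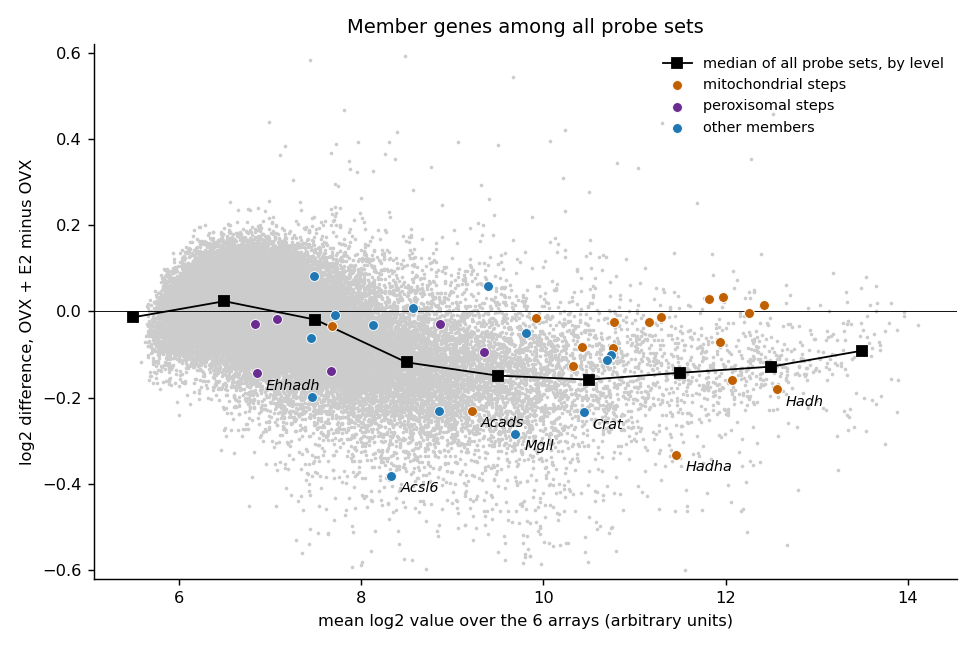
Log2 difference (OVX + E2 minus OVX) against the mean log2 value over the 6 arrays, with all probe sets in grey, their median per unit of level as squares, and member genes in colour; 65 probe sets beyond 0.6 in either direction are not drawn. Bright mitochondrial genes such as Acadm (0.01) lie above the squares, and Hadha (−0.33) lies below them.

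Malonyl-CoA, the inhibitor of the shuttle, is made by Acacb at the mitochondrial surface and removed by Mlycd. Acacb measured 10.79, 10.81 and 10.78 in OVX against 10.72, 10.76 and 10.60 in OVX + E2, so the groups did not overlap. The difference was −0.10 (unadjusted p = 0.0808 by limma), and after cyclic loess it was 0.04. The other Acacb probe set differed by 0.04 as deposited. Mlycd, the decarboxylase, differed by −0.05, with overlap. Neither gene of malonyl-CoA turnover had an unadjusted p under 0.05.

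The lipases act on stored triglyceride in turn. Pnpla2, adipose triglyceride lipase, measured 10.95, 10.73 and 10.58 in OVX against 10.73, 10.46 and 10.73 in OVX + E2, a difference of −0.11 with overlap. Lipe, hormone-sensitive lipase, measured 8.33, 8.18 and 7.93 in OVX against 8.21, 8.12 and 8.02 in OVX + E2, a difference of −0.03. The other probe sets of Pnpla2 and Lipe differed by 0.07 and 0.09. Mgll, which splits the last glycerol bond, gave the largest difference of the lipases. Its brightest probe set measured 9.78, 10.02 and 9.70 in OVX against 9.30, 9.64 and 9.71 in OVX + E2, a difference of −0.28 (SE 0.124, unadjusted p = 0.0549 by limma). The 3 other Mgll probe sets differed by −0.08, −0.19 and 0.09. The one at −0.19 had an unadjusted p of 0.0301 by limma, but its groups overlapped. Acot2, the mitochondrial thioesterase that frees fatty acid from acyl-CoA, measured 9.68, 9.35 and 9.07 in OVX against 9.38, 9.33 and 9.57 in OVX + E2, and the range of 0.61 within OVX exceeded its difference of 0.06. Its close relative Acot1 makes this value uncertain.

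The arrays of the OVX group differed among themselves for these genes. OVX replicate 1 was the highest array for 21 of 37 member genes, where it was highest for 17.1% of all genes and for 26.2% of genes with a mean of 9 or more. OVX replicate 3 was the lowest array for 13 members, and OVX + E2 replicate 3 for 12. All genes with a mean of 9 or more had median deviations of 0.09 and −0.11 on these arrays, so low values on the second were common to bright genes. The median deviation of the mitochondrial genes was 0.14, 0.04 and −0.08 on OVX replicates 1, 2 and 3 against −0.05, 0.03 and −0.02 in OVX + E2, so the OVX arrays enclosed all OVX + E2 arrays. For the peroxisomal genes it was 0.12, −0.02 and 0.05 in OVX against −0.03, 0.0050 and −0.04 in OVX + E2.

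Fat cell markers ordered the OVX arrays as the mitochondrial genes did, but not the OVX + E2 arrays. Their median deviation was 0.49, 0.01 and −0.38 on OVX replicates 1, 2 and 3 against 0.05, 0.02 and −0.14 in OVX + E2. Adipoq, the gene of adiponectin, measured 9.83, 8.03 and 7.45 in OVX against 9.05, 8.77 and 8.01 in OVX + E2. Of the 9 markers 7 were measured (not Plin1 and Cfd), and their summed intensity ranged from 6114 to 9406 in OVX and from 7463 to 7761 in OVX + E2. Fabp4 and Plin4, the brightest of them, are known from endothelium and muscle as well. Within OVX the lipases had this order, with median deviations of 0.20, 0.05 and −0.11, and so did Acot2, with 0.29, −0.05 and −0.33. Within OVX + E2 neither did, with 0.03, −0.05 and 0.01 for the lipases and −0.02, −0.07 and 0.18 for Acot2, which was highest on the array where the markers were lowest. Lipe stood 1.33 times higher on OVX replicate 1 than on OVX replicate 3 and Acot2 1.53 times. The part of fat cells in these values was not tested. The 6 endothelial markers were highest on OVX replicate 2, with summed intensities from 1984 to 3018 in OVX and from 2103 to 2381 in OVX + E2, and the 6 macrophage markers ranged from 1039 to 1225 and from 1053 to 1135. Macrophage markers had the order of the fat cell markers within OVX, with median deviations of 0.12, 0.05 and −0.11. Within OVX + E2 they did not, with −0.05, −0.05 and 0.03.

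**Figure D5:**
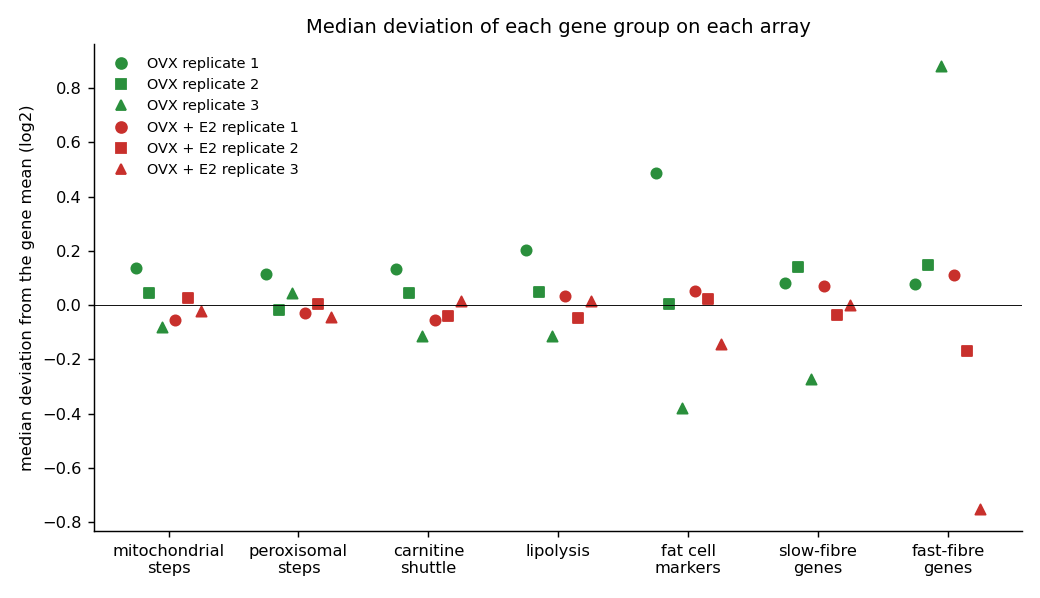
Median deviation (log2) of the genes of each group from their means over the 6 arrays, 1 point per array, with OVX in green and OVX + E2 in red. The OVX arrays span from 0.14 to −0.08 for the mitochondrial steps and from 0.49 to −0.38 for the fat cell markers, and fast-fibre genes span from 0.88 to −0.75.

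Other genes of the same pathways gave like counts. Of 18 further genes of mitochondrial oxidation, 16 were below 0 with a median of −0.10, and 3 (16.7%) were lower and 0 higher at an unadjusted p under 0.05, beside 13.3% and 4.62% of all genes. They were Mmut, the methylmalonyl-CoA mutase of odd-chain oxidation (−0.26), Acot13 (−0.12) and Mcee (−0.11). After cyclic loess the median of the 18 was 0.04, with 6 below 0, and 0 had a p under 0.05 in either direction. Of 30 further peroxisomal genes, 23 were below 0 with a median of −0.07, and 6 (20%) were lower and 0 higher. After cyclic loess the median of the 30 was 0.02, with 12 below 0, 1 lower and 1 higher. Of all genes, 47.4% were below 0 after this step, with 3.3% lower and 4.5% higher at an unadjusted p under 0.05. Pecr, a peroxisomal enoyl-CoA reductase, measured 8.37, 8.41 and 8.45 in OVX against 8.20, 8.17 and 7.96 in OVX + E2. Its difference of −0.30 (unadjusted p = 0.0027 by limma) was −0.21 after cyclic loess (unadjusted p = 0.0088). The import factors Pex6 (−0.16) and Pex14 (−0.19) were among the other 5, none of which had a p under 0.05 after cyclic loess.

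Of 24 genes of fatty acid uptake, storage and regulation, 14 were below 0 with a median of −0.04, and 3 were lower and 0 higher at an unadjusted p under 0.05. These shares, 58.3% below 0 and 12.5% lower, were near those of all genes, 55.0% and 13.3%. After cyclic loess the median of the 24 was 0.07, with 7 below 0, 1 lower and 1 higher. All genes after this step had 47.4% below 0, with 3.3% lower and 4.5% higher. Ppard, the PPAR of oxidative muscle that drives fatty acid oxidation genes, measured 7.79, 7.74 and 7.81 in OVX against 7.62, 7.58 and 7.55 in OVX + E2. It differed by −0.19 (SE 0.0397, unadjusted p = 0.0018 by limma), and by −0.15 after cyclic loess (unadjusted p = 0.0052). Rxra, its partner receptor, differed by −0.25, and Abhd5, the activator of Pnpla2, by −0.16. Neither Rxra nor Abhd5 was lower at an unadjusted p under 0.05 after cyclic loess. None of these genes passed the threshold of 0.001.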

How the data were processed

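Expression was measured in 6 samples, 3 OVX and 3 OVX + E2, with 1 Affymetrix mouse genome array each. Working in R 2.14.2, the authors background-corrected the scans, brought them to a common scale by variance stabilization, summarised probes by median polish and deposited log2 values. All later steps used these deposited log2 values. Samples were grouped by the treatment in the labels. Each probe set was fitted with lmFit and eBayes of limma 3.58.1 (R 4.3.3), two-sided, with no covariate, over all 45101 probe sets. The threshold was an unadjusted p of 0.001, with Benjamini-Hochberg adjustment alongside, and an unadjusted p under 0.05 served for description. Genes were named only from the 34958 probe sets with a single symbol, and not from the 932 with several or the 9211 without one.

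The members and all gene lists were chosen with earlier results of these data known. Named genes are members with an unadjusted p under 0.05 and groups apart, the 3 members with the widest spread within a group, other members as their roles required, up to 3 genes with the smallest p per further list, and marker genes. Alternatives were quantile normalization, cyclic loess (3 iterations), median centring, a level filter, an intensity trend, array weights, a replicate block, the most variable probe set per gene, Eci2 counted as mitochondrial, and arrays left out. The fit was tested on simulated data. The planned description of protein ends was not run. Sequences and positions come from RefSeq tables of GRCm38.p6.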

Additional observations from a re-analysis of the deposited data

How the results depend on the processing

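The count of members at an unadjusted p of 0.001 or less was 0 under every alternative run. Members lower at an unadjusted p under 0.05 numbered 7 as deposited, 1 after quantile normalization, 1 after cyclic loess, 11 after median centring, 11 with array weights and 3 to 11 when single arrays were left out (3 without OVX replicate 1, 11 without OVX replicate 3, 4 without OVX + E2 replicate 1). Members higher numbered 0 as deposited, 7 after quantile normalization, 5 after cyclic loess, 1 with the replicate block, 1 with the intensity trend, 1 with array weights and 0 to 3 with single arrays left out (3 without OVX replicate 1). After quantile normalization 10.1% of member probe sets were higher, beside 4.46% of all, and 1.45% were lower, beside 3.33%. After cyclic loess 7.25% were higher, beside 3.57%, and 1.45% were lower, beside 4.02%. All probe sets at 0.001 numbered 96 as deposited, 31 after quantile normalization, 31 after cyclic loess, 164 after median centring, 30 above the median level, 21 with the block, 39 with the trend, 37 without both arrays numbered 3 and 19 to 76 with single arrays left out (19 without OVX + E2 replicate 3, 62 without OVX replicate 2 and 49 without OVX + E2 replicate 1 or 2). All probe sets lower at 0.05 numbered 4255, with 1500 after quantile normalization, 1812 after cyclic loess and 2571 to 4535 with single arrays left out (2571 without OVX + E2 replicate 3). They numbered 5574 after median centring and 4577 with array weights. All probe sets higher numbered 1961, with 1021 after median centring, 416 above the median level, 1162 with the block, 948 without both arrays numbered 3 and 1036 to 1920 with single arrays left out (1036 without OVX + E2 replicate 3, 1294 with OVX replicate 1 left out, 1295 without OVX + E2 replicate 1). They numbered 2010 after quantile normalization, 1612 after cyclic loess, 2478 with the trend and 2503 with array weights. The mitochondrial median was −0.03, with 0.0894 after quantile normalization, 0.0691 after cyclic loess and −0.13 to −0.0015 with single arrays left out. The median of all members was −0.06, with 0.0646 after quantile normalization, 0.0451 after cyclic loess and −0.10 to −0.02 with single arrays left out (−0.02 without OVX replicate 1, −0.10 without OVX replicate 3). The median of the peroxisomal members stayed below 0 in each, from −0.08 to −0.04 with single arrays left out. The dimmer Decr1 probe set turned to 0.0216 after quantile normalization and 2.11e-05 after cyclic loess. Without both arrays numbered 3, a setting added for these genes after the data were seen, the brightest probe set of Pex5 turned to 0.0343 and that of Acox3 to 0.0577. The other Pex5 probe set stayed below 0, at −0.0769. The causes were not tested. Same-numbered arrays deviated from their group means with correlations of −0.125, −0.20 and −0.342, which gave no sign of pairing by number. These 3 values cannot settle whether same-numbered samples were handled together. With the replicate block 4 of the 6 members named by rule kept an unadjusted p under 0.05 by limma, and Acads (0.053) and the dimmer Decr1 probe set (0.062) did not. With 3 arrays a group small differences are not detectable.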
